A study of Homo sapiens with 2 samples.

Results

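Peaks of NUDT21 eCLIP-seq were examined on 10 long noncoding RNA (lncRNA) genes: MALAT1, NEAT1, NORAD, KCNQ1OT1, GAS5, SNHG1, SNHG5, SNHG12, SNHG14 and OIP5-AS1. A peak was given to a gene when its midpoint lay in the gene body of GENCODE 44, whatever its height. By this rule 58 of the 20499 deposited peaks belonged to the 10 genes. They lay in 5 of the 10, where 6.6% of all annotated lncRNA genes held a peak midpoint: SNHG14 held 26 peaks, MALAT1 17, NORAD 11, OIP5-AS1 3 and NEAT1 1. No peak midpoint lay in KCNQ1OT1, GAS5, SNHG1, SNHG5 or SNHG12.

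The cells were J-Gamma1, an established human T-ALL line, that is, of acute lymphoblastic leukemia of T cells. For both samples RNA and protein were crosslinked on ice by rounds of UV-C (254 nm, 400 mJ each), and the cells were lysed for 15 min and digested with 40 U RNase I for 5 min at 37 °C. The series held 1 library made with the NUDT21 antibody, whose peak list was analysed, and 1 input library, of which no file was used here. There was no replicate and no read total, so the depth was unknown, no difference was tested, and intervals of shares cover counting error only. Without an RNA level for each gene, a missing peak and a low RNA level cannot be told apart, and the identity of the cells could not be checked on marker genes. The peaks carry no strand, so that RNAs from opposite strands at a position cannot be told apart either.

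NUDT21 is the small subunit of the cleavage factor I complex, which recognises UGUA upstream of poly(A) sites and takes part in the choice of the site that is cleaved. The lncRNAs examined here end in different ways. MALAT1 and the long isoform of NEAT1, both nuclear, have 3' ends made by RNase P cleavage in front of a tRNA-like structure, whereas the short isoform of NEAT1 is polyadenylated. NORAD is a polyadenylated, mostly cytoplasmic RNA with many binding elements for Pumilio proteins. The SNHG genes and GAS5 carry small nucleolar RNAs (snoRNAs) in their introns. SNHG14 as annotated extends over UBE3A on the opposite strand, in the imprinted Prader-Willi/Angelman region. Whether SNHG14 RNA reached UBE3A in these cells was not measured. KCNQ1OT1 is the imprinted antisense transcript within KCNQ1, and OIP5-AS1 (cyrano) is known for its site for miR-7.

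The sequences that the results turn on are shown here as RNA on the strand of the gene, 5' to 3', read from the hg38 reference. The first set shows the first UGUA, in capitals, of the peak with the highest fold enrichment that held this motif in each gene.
MALAT1, chr11:65503554-65503583, plus strand: uuacauguugugaUGUAaauuguguagaaa
NORAD, chr20:36048171-36048200, minus strand: cuuuguuaaaauuUGUAgaaaggcugucuu
SNHG14, chr15:24993792-24993821, plus strand: accauuuaacugcUGUAugaauaauagaua
OIP5-AS1, chr15:41297005-41297034, plus strand: auuuuuuauuuuuUGUAgaguggggucuug

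The tallest peak of MALAT1, which was also the tallest of the whole list, and the only peak of NEAT1 held no UGUA on the gene strand. Their central bases are given to show what sequence they covered.
MALAT1, chr11:65499716-65499745, plus strand: aaauuagaagauaaaaacauacuuuuagaa
NEAT1, chr11:65433505-65433534, plus strand: guaagcauuucugaaucuccuauccaauac

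The Pumilio element, UGUA followed by any base and AUA, contains the NUDT21 motif, so that each element is also a UGUA. The elements of NORAD that lay wholly in a peak are in capitals below.
NORAD, chr20:36047971-36048000, minus strand: caacccuacugUGUAUAUAgcggacaaacu
NORAD, chr20:36047659-36047688, minus strand: uguguauauagUGUAUAUAagcggacauag
NORAD, chr20:36046344-36046373, minus strand: auuagccuauuUGUAAAUAccuuuguuaua

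The last set shows the poly(A) signal AAUAAA, in capitals, before the annotated end of NORAD and before the last annotated end of the short NEAT1 transcripts.
NORAD, chr20:36045630-36045659, minus strand: uaacuuuuaaaaAAUAAAgguuauuuuaaa
NEAT1, chr11:65426491-65426520, plus strand: cuuuacagcacaAAUAAAguuugaguucua

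The lncRNA peaks were tall beside the rest of the list, and this was so in MALAT1 above all. Peak height was read from the deposited Score, whose unit is not stated and which was taken as a pileup. Its values were whole multiples of 0.228, called steps here. The 58 peaks had a median of 10 steps (range 1 to 45), whereas the whole list had a median of 3. Of the 58 peaks, 48 (82.8%) stood at 5 or more steps, against 42.3% of the list. Without MALAT1 the median of the other 41 peaks was 7 steps, and 75.6% of them stood at 5 or more. Fold enrichment was taken as the ratio of Score plus 1 to the local background plus 1. Its median was 2.39 in the 58 peaks (1.17 to 3.85) and 1.61 in the list. The deposited p-values of the 58 peaks lay between 1.51e-05 and 0.0476. The deposited false discovery rate (FDR) was 1 for every one of the 58 peaks, as it was for 20383 of the 20499 peaks of the list. Of all peaks, 0.0927% had an FDR under 0.05.

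**Figure D1:**
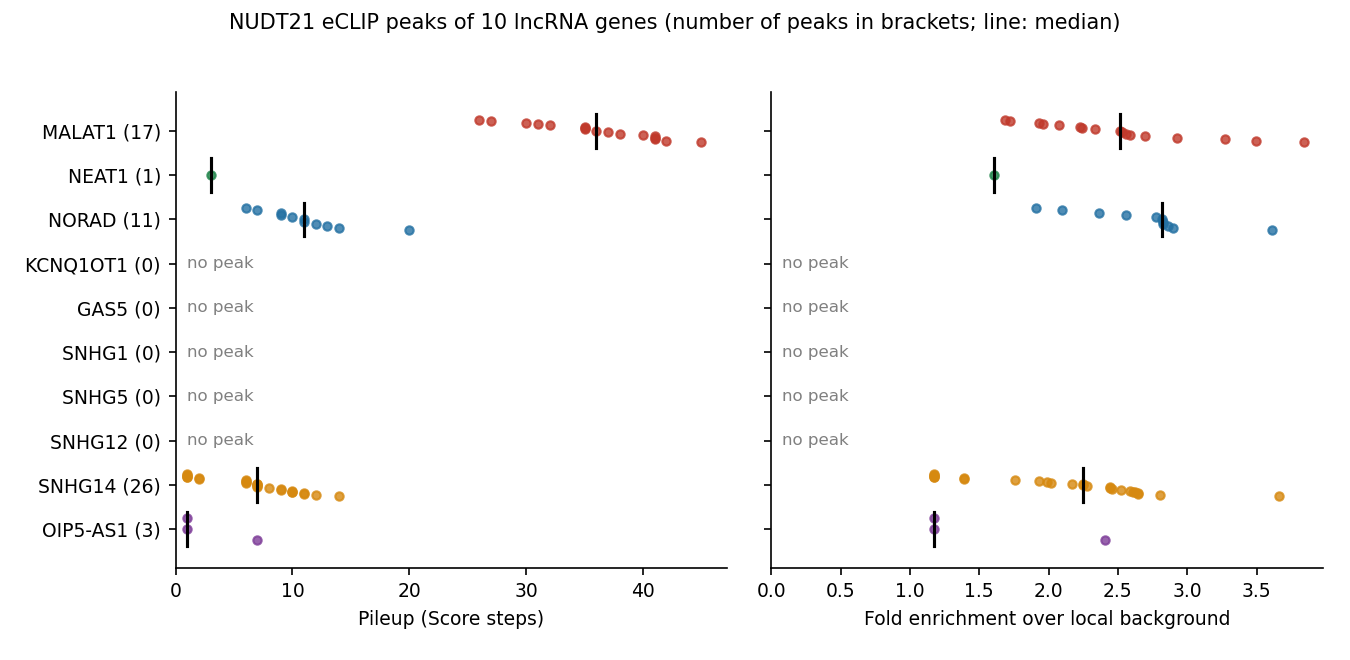
Each point is a peak of a lncRNA gene, with its pileup in Score steps on the left and its fold enrichment over the local background on the right; vertical lines are medians and the number of peaks stands in brackets. The 17 MALAT1 peaks lie between 26 and 45 steps, above every peak of the other genes, while their fold enrichments, from 1.68 to 3.85, overlap those of NORAD and SNHG14.

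All 5 genes with a peak had an exonic one. Of all annotated lncRNA genes, 2.38% had a peak midpoint in an exon, against 22.5% of protein-coding genes, of which 33.7% had one in the gene body. Most lncRNA genes with a peak had few: 761 of 1245 had 1 peak, and 16 had 11 or more, among them SNHG14, MALAT1 and NORAD. By the number of exonic peaks MALAT1 stood first of all lncRNA genes, ahead of its antisense partner TALAM1, in whose exons most of the same peaks lie. SNHG14 and FGD5-AS1 followed with 13 each, and NORAD came next with 11.

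Of the 58 peaks, 45 lay in an exon of the gene (77.6%, exact Clopper-Pearson 95% interval 64.7 to 87.5). For 29 of them, in MALAT1, NEAT1 and NORAD, this was given by the annotation, whose merged exons cover the whole gene body there. In SNHG14 and OIP5-AS1, where introns remain between the merged exons, 16 of 29 were exonic. These exons were merged from 142 transcripts of SNHG14 and 72 of OIP5-AS1. With the exons of 1 transcript per gene in place of all, the share over the 58 was 51.7% (38.2 to 65.0). This lower share was not worked out by gene, so the exonic counts of SNHG14 and OIP5-AS1 hold for merged exons only. The genes differ widely in length, so peaks were also counted per kb of merged exon. This gave 2.04 peaks per kb for NORAD and 1.63 for MALAT1. It gave 0.134 for OIP5-AS1, 0.106 for SNHG14, whose intronic peaks are not in this count, and 0.044 for NEAT1. Peaks covered 28.2% of the bases of NORAD and 26.2% of MALAT1, but 2.80% of the exon bases of OIP5-AS1, 1.36% of SNHG14 and 1.01% of NEAT1. On this scale NORAD and MALAT1, a cytoplasmic and a nuclear RNA, were alike, and NEAT1 was the lowest of the genes with a peak.

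As a comparison, 751 peaks lay in other lncRNA genes without a protein-coding gene at the same position. They were low, with a median of 1 step and a highest value of 18, and 17.6% of them reached 5 steps. Their median length was 229 nt, against 121.5 nt for the 58 peaks. Of these peaks 33.0% (29.7 to 36.5) were exonic.

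**Figure D2:**
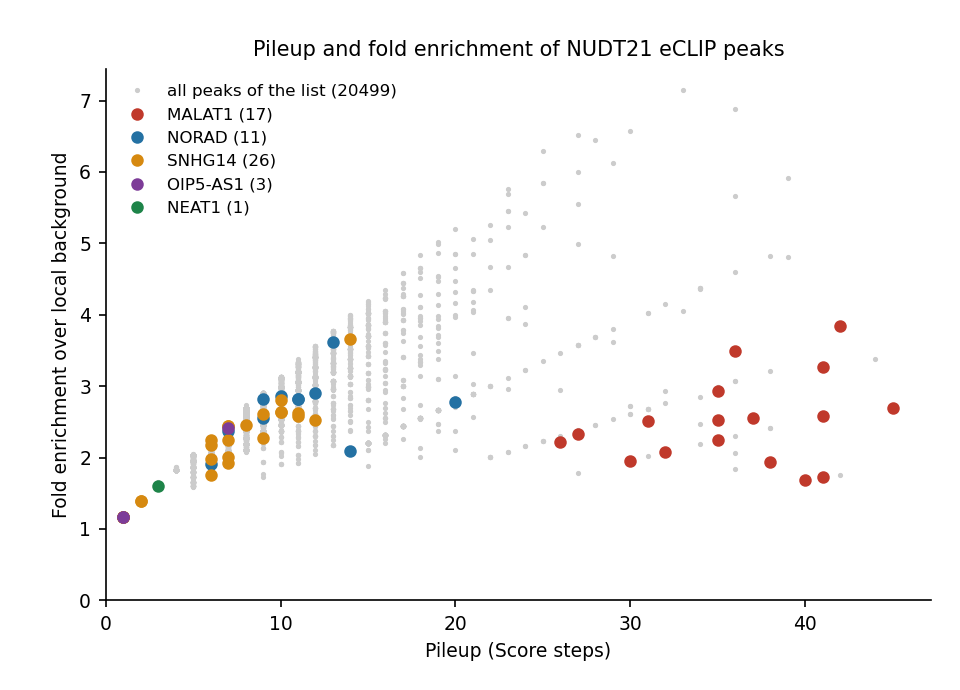
Pileup in Score steps (x axis) and fold enrichment over the local background (y axis) of all 20499 peaks in grey, with the peaks of the 5 lncRNA genes in colour. MALAT1 peaks lie at the right, with up to 45 steps but at most 3.85-fold enrichment where the list reaches 7.14, while the peaks of NORAD and SNHG14 lie at 20 steps or fewer.

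MALAT1 (ENSG00000251562.11, chromosome 11, 65497640 to 65508073, plus strand, a single exon block of 10434 nt) carried the tallest peaks of the data set. Its 17 peaks had 26 to 45 steps, with a median of 36. Of the 10 tallest peaks of the list 6 lay in MALAT1, as did 8 of the 20 tallest and 13 of the 50 tallest. The whole list held 87 peaks of 26 or more steps, and 17 of these were all the peaks of MALAT1. Ranked by fold enrichment, none of the 100 highest peaks was a MALAT1 peak, and the lowest of these 100 had a fold enrichment of 4.06. The local background, solved from Score and fold enrichment and given in units of Score, ran from 1.63 to 5.00 in MALAT1 with a median of 2.69, whereas the list had a median of 0.048. Of the 66 peaks of the list with a background above 1.5, 17 lay in MALAT1.

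The MALAT1 peaks are described here in 4 stretches along the RNA, separated by eye. The RNA upstream of them, 1582 nt, and the last 2046 nt of the annotated gene held no peak. The first stretch began with the peak at 65499222 to 65499294 (41 steps, fold enrichment 2.58). It continued with 65499647 to 65499813, which held the maximum of the list (45 steps, 2.70). The peaks at 65499861 to 65500006 (38 steps, 1.93) and 65500075 to 65500260 (37 steps, 2.56) closed it.

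The second stretch was lower, with 5 peaks of 27 to 35 steps. It ran from 65501287 to 65501448 (35 steps, 2.93) and 65501612 to 65501666 (30 steps, 1.96) over 65501722 to 65501842 (27 steps, 2.33) and 65501923 to 65502002 (32 steps, 2.07) to 65502201 to 65502275 (31 steps, 2.51). The third stretch held the 3 peaks of MALAT1 with the highest fold enrichment. These were 65503560 to 65504002 (42 steps, 3.85), the longest at 443 nt, then 65504367 to 65504683 (36 steps, 3.49) and 65502670 to 65502909 (41 steps, 3.27). Between them stood 65503008 to 65503125 (40 steps, 1.68) and 65503331 to 65503390 (26 steps, 2.22), the latter the lowest peak of the gene.

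The fourth stretch consisted of 65505364 to 65505485 (35 steps, 2.53), 65505533 to 65505589 (35 steps, 2.24) and 65505713 to 65506027 (41 steps, 1.72). GENCODE annotates 66 MALAT1 transcripts with 39 distinct ends. Of the 17 midpoints, 12 lay within 150 nt of such an end, as did 51.7% of the bases of the gene. None lay within that distance of the outermost end, 65508073, since the nearest stood 2203 nt away. Annotated ends from 65506431 to 65506516 stood nearer, 561 to 646 nt from a midpoint. Which end the RNA had in these cells was not measured.

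**Figure D3:**
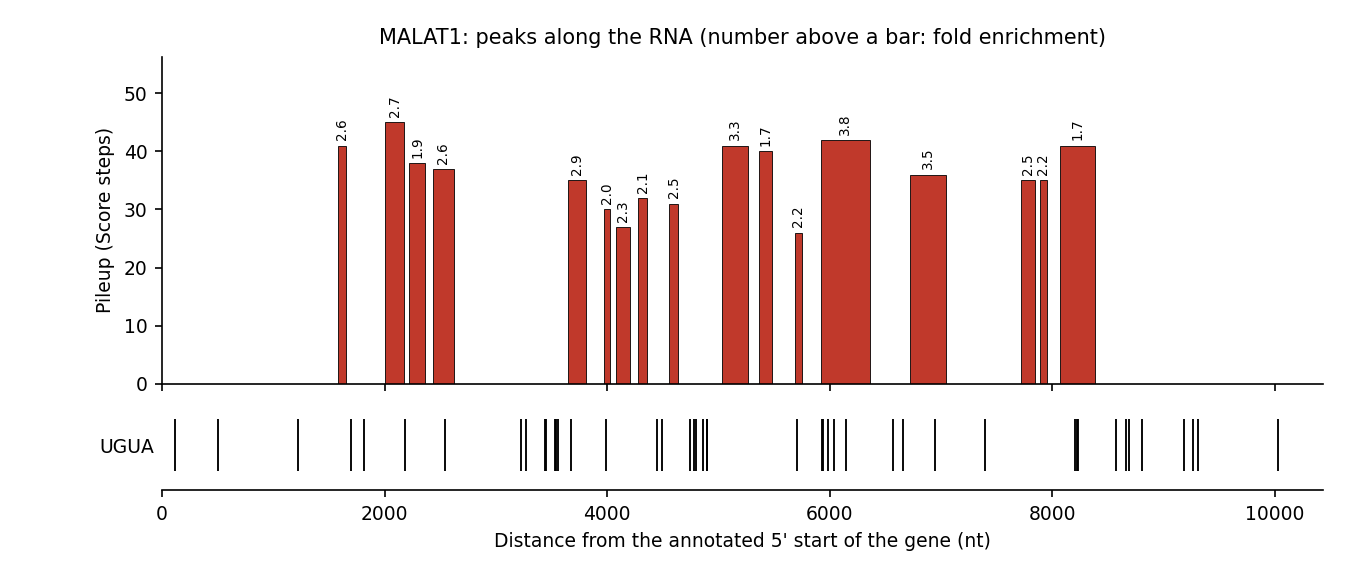
Peaks along MALAT1 by distance from the annotated 5' start in nt (x axis); bar width is the extent of the peak, bar height its pileup in Score steps, the number above a bar its fold enrichment, and ticks below mark each UGUA of the RNA. The peaks stand between 26 and 45 steps over the middle of the gene, and both ends of the annotated gene are free of peaks. UGUA occurs in peaks as well as between and beyond them.

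Of the 17 MALAT1 peaks, 7 (41.2%, 18.4 to 67.1) held UGUA, against 45.2% of all peaks in genes of 1 strand, and 5 of the 13 copies in peaks lay in the peak of highest fold enrichment, whose first copy is shown above. The density of UGUA was 4.75 per kb in the peaks and 4.16 per kb in the rest of the RNA, a ratio of 1.14. On the opposite strand the ratio was 0.937. The bases of the peaks differed more than the motif did: A made up 35.3% of the bases in peaks and 26.8% outside, and C 14.4% in peaks and 19.1% outside. Among 204 words of 4 bases with at least 20 copies in MALAT1, ACAU had the highest ratio of density in peaks to outside (3.32), followed by GAUA (3.24) and AUAA (3.12), and UGUA stood at rank 73. These words were counted after the peaks had been seen, and the centre of the tallest peak shown above contains all 3 of the leading words. The midpoints of 16 of the 17 peaks also lay in the exon of TALAM1 (ENSG00000289740.1, chromosome 11, 65499312 to 65507432, minus strand), the antisense transcript of MALAT1.

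NEAT1 (ENSG00000245532.11, chromosome 11, 65422774 to 65445540, plus strand), the RNA scaffold of paraspeckles and the neighbour of MALAT1, had a single low peak. Its 22767 nt, against 10434 nt of MALAT1, held 1 peak, at 65433405 to 65433633. This peak had 3 steps, a fold enrichment of 1.61, equal to the median of the list, and a deposited p-value of 0.0469. Its midpoint lay 10745 nt from the 5' start, in the part that is present in the long isoform only, 7006 nt beyond the last annotated end of a short transcript. The peak held no UGUA on the NEAT1 strand and 5 on the opposite strand.

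The midpoint of the 1 NEAT1 peak did not lie within 150 nt of an annotated end. Of the bases of the gene, 5.19% lay that near to an end. GENCODE lists 8 short NEAT1 transcripts with 7 distinct ends, from 65424404 to 65426513, that is, 1630 to 3739 nt from the 5' start. In the 150 nt before 5 of the 7 ends UGUA occurred, with at most 4 copies. AAUAAA was found before 1 of them, the end at 65426513, starting 10 nt before it. The whole RNA holds 141 copies of UGUA, or 6.19 per kb, more than the 4.31 per kb of MALAT1. The RNA level of neither gene is known, and a relation of UGUA density to the number of peaks was not tested.

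KCNQ1OT1 (chromosome 11, 2597308 to 2700003, minus strand), the third nuclear lncRNA, held no peak, and the nearest peak lay 210331 nt away. Its exons contain 341 copies of UGUA in 92625 nt, 3.68 per kb.

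NORAD (ENSG00000260032.2, chromosome 20, 36045618 to 36051018, minus strand), with 1 annotated transcript of 5401 nt, had the most peaks per kb of the 10 genes. Its 11 peaks had 6 to 20 steps, with a median of 11, and the highest median fold enrichment of the genes, 2.82 (range 1.91 to 3.61). All 11 stood above the median of the list in both values. The local background was 0.082 to 1.00, with a median of 0.24, so NORAD reached a higher median fold enrichment than MALAT1 with lower peaks over a lower background. The peak with the highest fold enrichment lay at 36047977 to 36048203 (3.61, 13 steps). It was followed by 36046119 to 36046242 (2.90, 12 steps) and 36046880 to 36046929 (2.86, 10 steps). The tallest peak, with 20 steps, lay at 36047507 to 36047681 (2.78).

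Measured to the outermost annotated 3' end, the NORAD peaks reached closer than those of MALAT1. The last one, at 36045701 to 36045756 (9 steps, 2.56), had its midpoint 110 nt from the end, and AAUAAA starts 29 nt before the end, as shown above. This peak held no UGUA. Of the 11 midpoints, 1 lay within 150 nt of the end, as did 2.80% of the bases of the gene. Over the whole RNA, NORAD had the highest density of UGUA of the 10 genes, 9.44 per kb. Of its 11 peaks 7 (63.6%, 30.8 to 89.1) held UGUA. Its peaks had 8.54 copies per kb and the remaining RNA 9.28, a ratio of 0.919, whereas on the opposite strand the ratio was 1.91. UGUA stood at rank 52 of 118 words of 4 bases in NORAD.

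NORAD contains 15 Pumilio elements, and these make up part of its UGUA copies. Of the 15, 3 lay wholly in a peak, 1 more overlapped the edge of a peak at 36047679 to 36047686, and 11 lay outside. Peaks covered 28.2% of the bases of NORAD, and no test was made of this count. The overlapping element stands just upstream of the second element shown above, where it can be read in lower case as the same letters. For comparison, SNHG14 contains 25 elements in its far longer exons, KCNQ1OT1 9, NEAT1 6 and MALAT1 none.

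**Figure D4:**
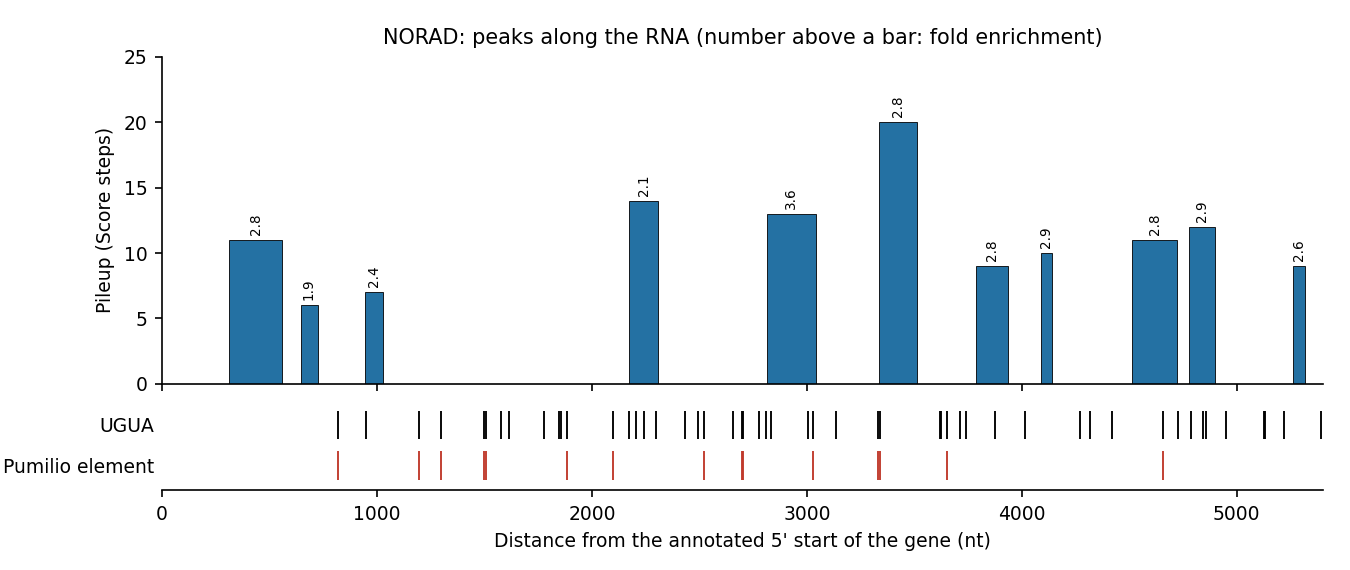
Peaks along NORAD by distance from the annotated 5' start in nt (x axis); bar width is the extent of the peak, bar height its pileup in Score steps, and the number above a bar its fold enrichment, with UGUA in black and Pumilio elements in red. The 11 peaks of 6 to 20 steps leave a gap of 1147 nt in the 5' part, which holds several Pumilio elements, and the last peak lies 83 nt before the 3' end.

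OIP5-AS1 (ENSG00000247556.7, chromosome 15, 41283958 to 41322392, plus strand) held 3 peaks, all in its merged exons. The peak at 41298239 to 41298286 had 7 steps, a fold enrichment of 2.41 and no UGUA. Those at 41296922 to 41297135 and 41320275 to 41320638 had the lowest values of the list, 1 step and 1.17, and 1 UGUA each. The midpoints at 41298239 to 41298286 and 41320275 to 41320638 lay 44 and 94 nt from an annotated transcript end, of which the gene has 52. Of the bases of the gene, 18.1% lay within 150 nt of such an end. All 3 midpoints also lay in an intron of the protein-coding gene ENSG00000285920 on the same strand, and the last also in an intron of OIP5 on the opposite strand.

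SNHG14 (ENSG00000224078.15, chromosome 15, 24978583 to 25420336, plus strand) held 26 peaks, as many as DLEU2 and more than any other lncRNA gene, over a body of 441754 nt. They had 1 to 14 steps, with a median of 7, and fold enrichments of 1.17 to 3.66, with a median of 2.25. These peaks fell into a tight group near the 5' end, a group at the 3' end over UBE3A, and a few low peaks between. The grouping was made after the positions had been seen. Only 8 of the 26 midpoints lay in no other long gene, so the rank by peak number rests on positions shared with other genes. With only midpoints outside protein-coding gene bodies, SNHG14 had 8 peaks, against 24 in MIR181A1HG, 21 in DLEU2 and 17 in MALAT1.

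The 5' group held 12 peaks within 14609 nt, from 24987047 to 25001655, and 10 of them were exonic. They had 6 to 14 steps, with a median of 9, and a median fold enrichment of 2.52. The SNHG14 peak with the highest steps and fold enrichment was here, at 24993759 to 24993901 (14 steps, 3.66), with 2 copies of UGUA, the first of them shown above. By fold enrichment the next in this group lay at 24990236 to 24990527 (10 steps, 2.81) and 24991956 to 24992035 (10 steps, 2.64). Of the 12 peaks 7 held UGUA. The midpoints of 11 of them also lay in an intron of the protein-coding gene ENSG00000214265 on the same strand, and that of the first peak in an exon of PWAR5 as well.

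At the other end of the gene, 6 midpoints lay in exons of UBE3A (ENSG00000114062.22, 25333728 to 25439051, minus strand), which encodes a ubiquitin ligase. These peaks had 6 to 12 steps, with a median of 7, and a median fold enrichment of 2.34, and 1 of the 6 midpoints lay in an SNHG14 exon. UGUA occurred in 1 of the 6 on the SNHG14 strand and in 1 on the UBE3A strand. The peak in exons of both genes, at 25375449 to 25375499 (10 steps, 2.64), had its midpoint 2 nt from an annotated end of SNHG14. In the absence of strand, RNA of SNHG14 and RNA of UBE3A cannot be told apart at these positions. One further midpoint lay in an intron of UBE3A, with 1 step.

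The 7 remaining SNHG14 peaks were low, with 1 to 6 steps and a median of 1. The family of SNORD116 genes, 30 in number here, had 1 peak between its first and last gene, and the 49 genes of SNORD115 had 1. No midpoint lay in any of the 84 annotated snoRNA genes of SNHG14. The span from the first to the last of these genes held 19 peaks, those of the 5' group included. Of the 7 remaining peaks, that at 25119902 to 25120208 (1 step, 1.17) had its midpoint 74 nt from an annotated end. Of all 26 SNHG14 midpoints, 2 lay within 150 nt of an annotated end, as did 2.89% of the bases of the gene. The peak at 25119902 started 476 nt from the start of the peak before it. Another pair, at 25043461 and 25043937, had the same distance. This distance occurred in 2000 of the 20469 pairs of neighbouring peaks of the list, and its origin was not tested.

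**Figure D5:**
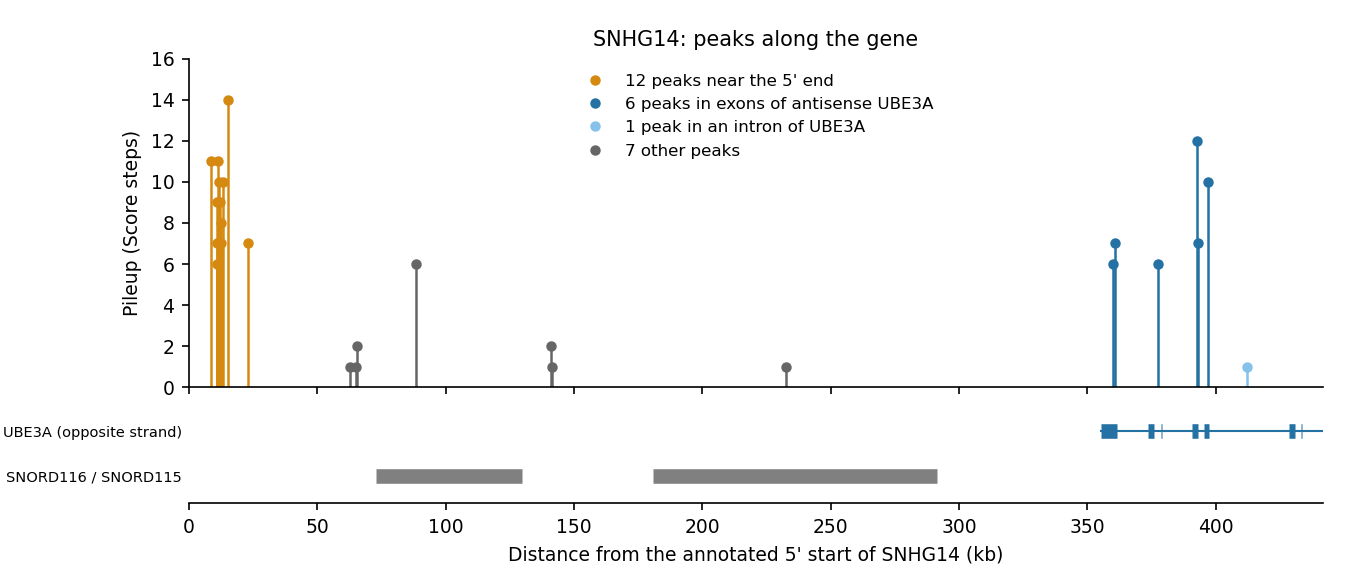
Peaks along SNHG14 by distance from its annotated 5' start in kb (x axis) and pileup in Score steps (y axis), coloured by group, with the exons of antisense UBE3A and the extent of the SNORD116 (left) and SNORD115 (right) genes below. The 12 peaks of the 5' group, at 6 to 14 steps, and the 6 peaks over UBE3A exons, at 6 to 12 steps, lie on either side of 7 peaks of 1 to 6 steps.

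The other snoRNA hosts among the 10 genes held no peak. These were GAS5 (chromosome 1, 173858559 to 173868882, minus strand), SNHG1 (chromosome 11, 62851978 to 62855953, minus strand), SNHG5 (chromosome 6, 85650491 to 85678932, minus strand) and SNHG12 (chromosome 1, 28578538 to 28583132, minus strand). The nearest peak lay 68057 nt from GAS5, 98057 nt from SNHG1, 4802 nt from SNHG5 and 17211 nt from SNHG12. Their exons were not without the motif: GAS5 contains 34 copies of UGUA (6.89 per kb), SNHG1 25 (6.29), SNHG5 77 (6.11) and SNHG12 18 (4.22). Their merged exons come to 4932, 3976, 12604 and 4266 nt in the same order. Of 28 further snoRNA host genes, chosen with results of these data known, 8 held a peak and 3 an exonic peak, where the shares of all lncRNA genes were 6.6% and 2.38%. Their 12 peaks reached at most 10 steps, and SNHG4 had 3, SNHG22 2 and ZFAS1 2.

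Pooled over the exons of the 5 genes with a peak, UGUA had the same density in peaks as outside them. There were 38 copies in 6784 nt of exonic peaks, 5.60 per kb, and 990 copies in 176797 nt of exon outside peaks, also 5.60 per kb. The ratio was 1.00, and the 11 other orders of the same 4 bases gave ratios from 0.651 to 1.31, of which 6 were higher than that of UGUA. At least 1 UGUA on the gene strand was present in 29 of the 58 peaks (50%, 36.6 to 63.4), and on the opposite strand in 27 (46.6%, 33.3 to 60.1). The 45.2% of all peaks in genes of 1 strand lay inside the first of these intervals. Those peaks were longer, however, with a median of 150 nt against 121.5 nt. Per kb they held 4.30 copies of UGUA, against 5.55 in the 58 peaks. Of the 751 peaks of other lncRNA genes, 692 lay in genes of 1 strand only, and 393 of these held UGUA (56.8%, 53.0 to 60.5). The density in the 692 was 4.15 per kb, lower than the 5.55 in the 58 peaks. The 58 were not limited to positions without a protein-coding gene. Peaks of the same RNA share their source, so these intervals are narrower than intervals over genes would be.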

How the data were processed

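The authors processed the reads of 1 replicate with fastp, collapsed duplicates that shared a molecular barcode, left out rRNA reads and mapped the others to hg38 (aligner not given in the sources used here). For peak calling the authors give MACS2 (slocal 1000, llocal 10000, q-value 0.05). The deposited list was not limited to that q-value: 19 of its 20499 peaks had an FDR under 0.05. Its highest deposited p-value was 0.04996. Whether the input was the control is not stated. The deposited table gives position, length, Score (taken as a pileup, in steps of 0.228), fold enrichment (a ratio), p-value and FDR (a q-value). The unit of Score is not stated. No read totals are given, so depth is unknown, and no column holds a strand.

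From these, the local background was solved as (Score + 1)/fold − 1, which gave whole multiples of 0.0048 for 98.5% of peaks (within 2.0%). Genes, exons (all transcripts merged) and transcript ends came from GENCODE 44. Motifs were counted in the hg38 sequence on the strand of the gene. UGUA and the Pumilio element (UGUA, any base, AUA) were searched in peaks and exons, and AAUAAA and AUUAAA within 50 nt before transcript ends. Shares have exact Clopper-Pearson 95% intervals. With 1 library no test was made. The counting was tested on simulated data. The work used Python 3.11.15 with pysam 0.24.0, scipy 1.17.1, pandas 2.3.3 and numpy 2.4.6, and matplotlib 3.10.9 for plots.

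All 10 genes are named. Peaks are given with position where a gene has up to 5, and otherwise for the 3 with the highest fold enrichment and those within 150 nt of a transcript end; the other MALAT1 peaks and the tallest NORAD peak were added after their values were seen. The values of another gene on a comparison list are not reported here. The genes, lists and tests were chosen with earlier results of these data known. The alternatives were an FDR under 0.05, 5 or more steps, a fold enrichment of at least 2, any overlap, no other gene body, merging within 100 nt, 1 transcript per gene, the opposite strand, the central 100 nt, extension by 50 nt, UGUAA or UGUAU and the other base orders. Leaving out MALAT1 or the peaks in UBE3A exons, the SNHG14 groups and the 4-base words came after a look at the data.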

Additional observations from a re-analysis of the deposited data

How the results depend on the processing

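No FDR under 0.05 was reached by any of the 58 peaks, so that this limit left 0 peaks, 0 genes with a peak and 0% of exon bases, and the other values could not be computed. With only midpoints in no other gene body, 21 peaks were left: 1 in MALAT1, because of antisense TALAM1, 8 in SNHG14 and none in OIP5-AS1. With 1 transcript per gene, the exonic share was 51.7% (38.2 to 65.0) and peaks covered 8.89% of exon bases, against 2.25% with all transcripts. That coverage was 1.497% for peaks of at least 2-fold enrichment and 1.39% without MALAT1. The share of peaks with UGUA was 36.2% in the central 100 nt, 67.2% with extension by 50 nt and 32.8% for UGUAA or UGUAU, and the order AUGU gave a density ratio of 0.651. The density ratio of UGUA, 1.00 as reported, fell on both sides of 1 under the alternatives, from 0.846 with extension by 50 nt to 1.23 on the opposite strand. In all, 12 of the 68 values computed for the main counts, medians, shares and ratios under the alternatives moved beyond 1.5 times (counts, medians and ratios) or beyond the counting interval (shares). With 5 or more steps NEAT1 had 0 peaks and OIP5-AS1 1. No paired analysis was possible because there was 1 library with a file and no replicate. Unknown depth and the missing strand limit every value, and without input values the peaks cannot be set against RNA level.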

Other observations

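Other lncRNAs gave a mixed picture beside the 10 genes. Of 17 further lncRNAs, 11 held a peak and 7 an exonic peak, where the shares of all lncRNA genes were 6.6% and 2.38%. They had 59 peaks in all with a median of 6 steps and a highest value of 18. DLEU2 had 26 of these peaks, 4 of them exonic. TUG1 had 11, all of them exonic with at most 11 steps, and PVT1 had 7, none exonic.

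Peaks also lay in genes of paraspeckle proteins, which assemble on NEAT1. Those with a peak, with MATR3 annotated under 2 gene entries whose shared peaks were counted once, held 35 peaks with a median of 9 steps and a median fold enrichment of 2.38. SFPQ had 15 peaks, the tallest of 22 steps, while the larger MATR3 entry had 6 and TARDBP 5. These lists were chosen with results of these data known, and no test was made on them.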
